A study of Mus musculus with 6 samples.

Results

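In mouse astrocytes that had carried a GSK-3 inhibitor and were then freed of it, 82 of 12027 named genes (0.682%) met a rule for a shift seen after washout and not under the inhibitor itself. The rule took non-control probes that were well above background on all 6 arrays. It required a mean difference between Ro and control below 0.3 on the log2 scale in either direction, a mean difference between washout and control of at least 0.8, and both washout arrays on the same side of the other 4. Where several probes of a gene qualified, the brightest was kept. Of the 82 genes, 44 were higher and 38 were lower after washout. The split depends on the scaling of the arrays: with each array's median in place of its 75th percentile, 93 genes met the rule, 32 higher and 61 lower, and 96 did in the authors' deposited table, 32 higher and 64 lower. The members were chosen by their levels on these same 6 arrays, so the differences of the members are described and not tested.

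The cells were astrocytes grown from the cortex and striatum of wild-type C57BL/6J mice at 1 day after birth, in medium with 10% fetal bovine serum. Washout cultures received 1 µM Ro3303544, a small-molecule inhibitor of GSK-3, for 48 h and then 48 h of growth medium without it. Ro cultures received 1 µM Ro3303544 for 48 h and were harvested at its end. Control cultures had control medium, and the treatment protocol names DMSO at the equivalent concentration. All cultures had 5 µM cytosine arabinoside for 2 days at about the first week, which depletes dividing microglia, and treatment began after 13 days in vitro. Washout cultures were thus harvested at day 17 and the others at day 15, with no control of the later age. There were 2 arrays per group, and the labels do not say whether they came from separate preparations, so that any spread between them may be technical. The washout arrays lay on 1 slide and the Ro and control arrays together on another: washout, slide and culture age cannot be told apart for any gene below.

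GSK-3 is a kinase that is active in resting cells and marks beta-catenin for degradation, so its inhibition switches on Wnt target genes, and it phosphorylates many other transcription factors. Immediate early genes such as Fos and Junb are transcribed within minutes of a stimulus without new protein synthesis, and their products are short-lived. Acute-phase and cytokine-feedback genes such as Socs3 answer signalling through the JAK kinases and STAT3, a pathway known for its part in astrocyte reactivity.

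The arrays were of like brightness, with a 75th percentile of 628 to 803 intensity units, and 60.4% to 65.2% of the probes were well above background. The number of arrays limits the precision. Across probes, replicates correlated at r = 0.994 in washout, 0.997 in Ro and 0.996 in control. All 20 astrocyte markers were above background, and Slc1a3, the glutamate transporter GLAST, stood at 5.64 and 5.47 in washout, 5.60 and 5.67 in Ro and 5.66 and 5.50 in control cultures. The treatment left its mark on Sp5, a Wnt target, which stood at -2.13 and -2.22 in washout, 3.99 and 4.08 in Ro and -4.19 and -4.21 in control cultures. Levels here are log2 processed intensities minus the array's 75th percentile, so that 0 is that percentile and 1 unit is a 2-fold difference, and the level of a probe is not comparable with that of another. On this scale 7 spike-in RNAs differed between washout and control by -0.13 to 0.03, and between Ro and control by -0.20 to -0.14.

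**Figure D1:**
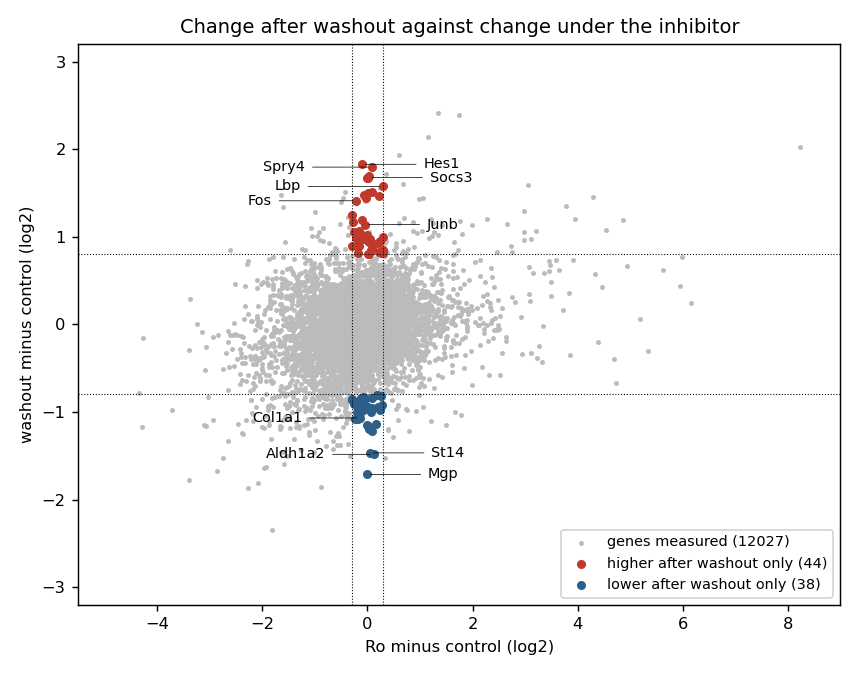
Washout minus control (vertical, log2) against Ro minus control (horizontal, log2) for 12027 measured genes (grey) and the members, with dotted lines at the thresholds of 0.8 and 0.3. The 44 members that were higher (red) and the 38 that were lower (blue) fill the narrow strip between the vertical lines, since the rule placed them there.

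A difference of at least 0.8 between washout and control was found in 352 of the 12027 genes, judged on the brightest probe of each. For 76 of these the difference between Ro and control was below 0.3, and for 171 it was 0.8 or more in either direction. On any probe of a gene rather than the brightest, 49 genes were higher by at least 0.8 in washout and Ro than in control. On the same basis 128 were lower in both. On the brightest probes, both washout arrays lay above all 4 others for 14.9% of the genes and below them for 14.8%. Over all members the difference between washout and control spanned 0.81 to 1.83 for the higher genes, with a median of 0.99, and -1.71 to -0.81 for the lower ones, with a median of -0.95. Many members were dim. Brightness was ranked among the named probes well above background on all 6 arrays. The median percentile was 17.9 for the higher members (0.277 to 95.4) and 22.8 for the lower ones (3.52 to 86.0). Of members described below, Hipk4 stood at 0.744, Hpx at 1.97, Ugt2b5 at 4.11, Steap4 at 7.12 and Spry4 at 8.66, while Socs3 stood at 95.4. In the limma fit across 20088 features, 10.1% passed an adjusted p of 0.05 (Benjamini-Hochberg) between washout and control, 42.2% between Ro and control (19.4% higher, 22.8% lower), and 41.6% between washout and Ro (21.4% higher, 20.1% lower). The fit used the same probe as the rule for 69 members. Of these, 53 passed between washout and control, 56 between washout and Ro and 1 between Ro and control, counts that follow from how the members were chosen.

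Cytokine feedback and acute-phase genes made up 5 of the higher members, and none of the 5 lay in a bright region of the slide (described further on). Socs3, whose product binds JAK kinases and the gp130 receptor and dampens STAT3 signalling, stood at 5.70 and 5.64 in washout, 3.96 and 4.06 in Ro and 4.02 and 3.97 in control cultures. Both washout arrays were apart from the other 4, as the rule required, and those 4 lay within 0.10 of each other. The difference between washout and control was 1.67 ± 0.07 (SE from limma, 2 arrays each), or 3.19-fold. Lbp, the lipopolysaccharide-binding protein of the acute phase, stood at 2.45 and 2.31 in washout, 0.96 and 1.24 in Ro and 0.88 and 0.73 in control cultures. Its difference was 1.57 ± 0.13, and its Ro arrays were also above both control arrays, by 0.30 on average. A2m, alpha-2-macroglobulin, a broad inhibitor of proteases that STAT3 induces in rat liver, stood at 3.81 and 3.73 in washout, 2.41 and 2.53 in Ro and 2.81 and 2.63 in control cultures. It was 1.05 ± 0.10 higher after washout, and its Ro arrays were the lowest of the 6. A second A2m probe gave 0.73 after washout and -0.38 in Ro cultures relative to control, so that it met neither threshold. Steap4, a metalloreductase of iron and copper that is known to respond to cytokines, had -2.71 and -2.61 in washout, -4.28 and -4.12 in Ro and -3.60 and -4.21 in control cultures. The control arrays of Steap4 were 0.61 apart, beside a difference of 1.24 ± 0.21. Hpx, hemopexin, which binds free haem, had -3.35 and -3.90 in washout, -4.26 and -4.39 in Ro and -4.98 and -4.25 in control cultures, a difference of 0.99 ± 0.29 with control arrays 0.73 apart.

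A list of 21 STAT3 and acute-phase genes, drawn up after the members' values were seen and so no independent evidence, had 19 measured genes. Of these 9 rose and 1 fell between washout and control, against 4.14% of all features that rose and 5.98% that fell (limma, adjusted p under 0.05). The list's median difference was 0.49, and that of all features -0.01. Apart from the members, 5 of 14 rose. Cebpd, a transcription factor of the acute phase, rose by 0.70 ± 0.09. Lcn2, the iron-siderophore binder lipocalin-2, rose by 0.69 ± 0.14. C4b, a complement component, rose by 0.64 ± 0.09. Osmr, the oncostatin M receptor, rose by 0.49 ± 0.08, and Cp by 0.46 ± 0.08. Between Ro and control 3 of the 19 genes rose and 4 fell. Cebpd was at -0.46 and Cp at 0.32 in that comparison, and both passed. Lcn2, C4b and Osmr were at 0.10, 0.12 and -0.09 in it and did not pass. Pim1, a kinase downstream of STAT, was the gene that fell after washout, by 0.71 ± 0.13, and it was -0.63 relative to control in Ro cultures. Serpina3n, a common marker of reactive astrocytes, had a difference of 0.39 ± 0.11 after washout that did not pass. In Ro cultures it was -1.07 relative to control. Stat3 itself differed by -0.09 ± 0.10 between washout and control, and did not pass. It was -0.36 relative to control in Ro cultures.

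Immediate early genes were the second group among the higher members, with Fos, Junb, Zfp36 and Ier2. Fos, a subunit of the AP-1 transcription factor, stood at 1.07 and 1.02 in washout, -0.61 and -0.54 in Ro and -0.33 and -0.40 in control cultures. Its difference between washout and control was 1.41 ± 0.07, 2.66-fold, and the Ro arrays were the lowest. The Fos probe has 10 spots per array, and the difference was 1.42 without the 2 spots in bright regions. Junb, another AP-1 subunit, stood at 5.04 and 5.00 in washout, 3.79 and 3.90 in Ro and 3.89 and 3.88 in control cultures. A second Junb probe, with 4.10 and 4.06 in washout, 2.91 and 2.99 in Ro and 3.10 and 2.90 in control cultures, gave a difference of 1.08, close to the 1.14 ± 0.07 of the first. Zfp36, tristetraprolin, which speeds the decay of AU-rich messenger RNAs, had 0.68 and 0.54 in washout, -0.77 and -0.59 in Ro and -0.54 and -0.62 in control cultures. Its washout arrays were 1.19 ± 0.10 above control. Ier2, a nuclear protein of the immediate early class, had 1.46 and 1.30 in washout, 0.64 and 0.69 in Ro and 0.37 and 0.54 in control cultures, a difference of 0.93 ± 0.10 with Ro arrays slightly above control.

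The list of immediate early genes held 25 measured genes, of which 13 rose and 0 fell between washout and control, against 4.14% and 5.98% of all features (limma, adjusted p under 0.05). At an unadjusted p under 0.05, 16 were higher and 2 lower. The list's median difference was 0.63, and that of all features -0.01. Leaving out the 4 members, 9 of 21 rose. In Ro cultures the 9 lay between -1.07 and 2.28 relative to control. Egr1, a zinc-finger factor induced by growth factors, rose by 2.39 ± 0.08 after washout and was 1.74 above control in Ro cultures. Egr2, a relative of Egr1, rose by 2.14 ± 0.07 and was 1.15 above control in Ro cultures. Ier3 rose by 1.21 ± 0.09 after washout and was 2.28 above control in Ro cultures. Maff, a small Maf protein, rose by 0.63 ± 0.07 after washout and was -1.07 relative to control in Ro cultures. Fosl2, an AP-1 subunit, came close to membership, with 0.78 ± 0.08 after washout and -0.30 in Ro cultures. Jun, the main partner of Fos, differed by 0.15 ± 0.07 between washout and control and did not pass, and it was -0.69 relative to control in Ro cultures.

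**Figure D2:**
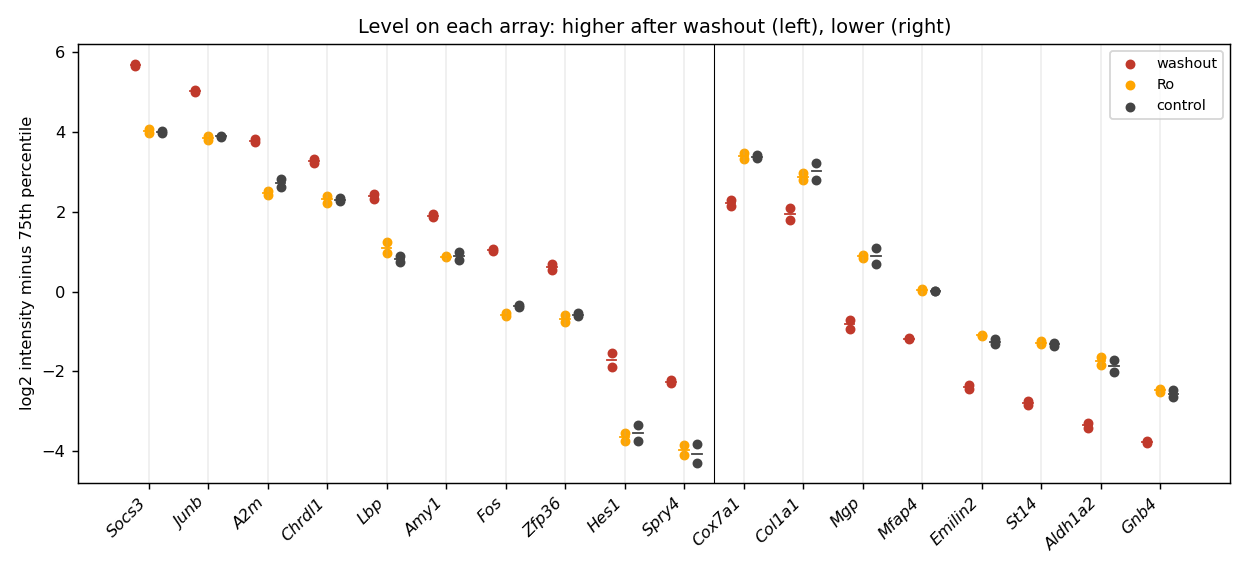
Level on each array (points, log2 intensity minus the 75th percentile) and group mean (bars) of 10 members that were higher and 8 that were lower after washout, for washout, Ro and control. In each gene both washout arrays lie on one side of the other 4, as the rule required, and the Ro and control arrays lie close together. Levels of different genes are not comparable.

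The window from 250 bases before to 50 bases after the start of the gene was at hand for 57 members (RefSeq, GRCm38.p6), 33 higher and 24 lower. The sequences below are shown because these 4 genes stand for the cytokine-feedback and immediate early members, and capitals mark a match to 1 of 3 motifs. These were the STAT site GAS (TTCNNNGAA, chosen after the values were seen), the serum response element known as the CArG box, and the core of the cAMP response element (TGACG), each looked for on both strands. Matches to 5 further motifs, counted below, are left in lower case.
Socs3 (chr11:117969317-117969616, minus strand), GAS in capitals:
Socs3: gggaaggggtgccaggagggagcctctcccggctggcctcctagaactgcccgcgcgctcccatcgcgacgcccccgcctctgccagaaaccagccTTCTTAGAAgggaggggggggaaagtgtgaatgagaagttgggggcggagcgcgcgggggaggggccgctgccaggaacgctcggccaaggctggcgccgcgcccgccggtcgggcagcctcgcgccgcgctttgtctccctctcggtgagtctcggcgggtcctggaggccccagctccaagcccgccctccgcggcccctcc
Zfp36 (chr7:28379179-28379478, minus strand), CArG box first and GAS second:
Zfp36: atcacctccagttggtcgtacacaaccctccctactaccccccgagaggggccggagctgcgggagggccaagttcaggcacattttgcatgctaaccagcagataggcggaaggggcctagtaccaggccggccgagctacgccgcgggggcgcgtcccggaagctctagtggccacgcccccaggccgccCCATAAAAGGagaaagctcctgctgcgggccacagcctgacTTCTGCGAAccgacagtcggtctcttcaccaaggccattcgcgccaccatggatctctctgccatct
Junb (chr8:84978699-84978998, minus strand), core in capitals:
Junb: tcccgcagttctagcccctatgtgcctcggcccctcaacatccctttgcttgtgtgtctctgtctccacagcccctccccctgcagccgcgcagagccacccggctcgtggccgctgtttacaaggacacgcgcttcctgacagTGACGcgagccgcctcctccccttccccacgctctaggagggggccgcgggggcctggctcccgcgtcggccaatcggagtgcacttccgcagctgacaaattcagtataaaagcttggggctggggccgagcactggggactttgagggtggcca
Fos (chr12:85473640-85473939, plus strand), cores in capitals:
Fos: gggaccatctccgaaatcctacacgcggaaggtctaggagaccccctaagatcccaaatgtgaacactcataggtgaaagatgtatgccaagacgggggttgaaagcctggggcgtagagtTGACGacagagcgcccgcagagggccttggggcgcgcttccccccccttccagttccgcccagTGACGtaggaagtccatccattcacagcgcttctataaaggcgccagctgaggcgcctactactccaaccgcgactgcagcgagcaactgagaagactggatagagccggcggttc
A GAS match was present in 5 of the 33 higher members with a sequence (15.2%), namely Socs3, Steap4, Zfp36, Plcb1 and Olfr812, in 2 of the 24 lower members (8.33%), and in 6.78% of the windows of measured genes. The CArG box was present in 2 of 33 (6.06%), Zfp36 and Hpx, in 0 of 24, and in 1.39% of measured genes. The core TGACG was present in 7 of 33 (21.2%), in 5 of 24 (20.8%) and in 31.5% of measured genes. The TCF/LEF letters CTTTGA, the core that beta-catenin's partners bind, were present in 5 of 33 (15.2%), in 3 of 24 (12.5%) and in 11.7% of measured genes. CACGTG, the E-box, was present in 0 of 33 higher members, in 3 of 24 lower ones (12.5%) and in 10.1% of measured genes. TGANTCA, the AP-1 site, was present in 1 of 33 (3.03%), in 2 of 24 (8.33%) and in 4.83% of measured genes. CCAAT was present in 9 of 33 (27.3%), in 7 of 24 (29.2%) and in 39.2% of measured genes, and the GC box GGGCGG in 17 of 33 (51.5%), in 12 of 24 (50.0%) and in 64.1%. These are counts of letters in a fixed window, and with few members 1 more or 1 fewer match shifts a share by several percentage points.

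Feedback regulators of other pathways included the member with the widest difference. Hes1, a transcriptional repressor that Notch signalling induces, stood at -1.90 and -1.53 in washout, -3.54 and -3.75 in Ro and -3.35 and -3.73 in control cultures. It was 1.83 ± 0.19 higher after washout, 3.55-fold. Of 6 measured Notch targets, listed after the values were seen, 1 rose (Hes1) and 2 fell, with a median of 0.12. Heyl fell by 1.79 ± 0.21 and Nrarp by 0.999 ± 0.15, and Hes5 differed by 0.17 ± 0.12, which did not pass. Heyl was very dim and not well above background on all 6 arrays. It had -6.99 and -6.90 in washout, -5.02 and -5.65 in Ro and -5.18 and -5.12 in control cultures. Spry4, Sprouty 4, an inhibitor of the Ras-MAPK cascade, stood at -2.30 and -2.22 in washout, -3.85 and -4.10 in Ro and -4.29 and -3.82 in control cultures, a difference of 1.79 ± 0.18. Of 15 measured MAPK feedback genes 6 rose and 1 fell, with a median of 0.03, and without Spry4 5 rose and 1 fell of 14. Phlda1 rose by 1.07 ± 0.09, and Dusp1 and Dusp6, phosphatases that switch off MAP kinases, rose by 0.58 ± 0.08 and 0.53 ± 0.08. In Ro cultures Dusp1 was -1.41 and Dusp6 -1.14 relative to control, where Spry4 was at 0.08. Etv4, an Ets factor, was the gene that fell, by 0.59 ± 0.07. Bhlhe40, a repressor in the circadian clock, stood at 2.25 and 2.27 in washout, 1.15 and 1.19 in Ro and 1.32 and 1.41 in control cultures, a difference of 0.90 ± 0.07 from a spot inside the bright region. Among 18 clock genes 5 rose and 3 fell, with a median of 0.09, and without Bhlhe40 4 rose and 3 fell of 17: Nfil3 rose by 0.86 ± 0.07 and Per2 by 0.55 ± 0.10, and Arntl, the partner of CLOCK, fell by 0.84 ± 0.09. Sertad1, a regulator of CDK4, had 3.14 and 3.09 in washout, 2.30 and 2.34 in Ro and 2.28 and 2.25 in control cultures, and a second probe gave 0.83 beside the 0.85 ± 0.07 of the first.

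Secreted signals were represented by 4 higher members. Edn1, the vasoconstrictor endothelin-1, which astrocytes make after injury, had -2.11 and -2.09 in washout, -3.25 and -3.19 in Ro and -3.16 and -3.08 in control cultures. The washout arrays were 1.02 ± 0.07 above control and lay close to each other. Chrdl1, chordin-like 1, a secreted BMP antagonist that astrocytes release and that matures synapses in mice, had 3.33 and 3.23 in washout, 2.23 and 2.40 in Ro and 2.33 and 2.26 in control cultures. Its difference was 0.98 ± 0.09 on this probe and 0.65 on a second, which stayed under the threshold. Adm, adrenomedullin, a vasodilator peptide known to respond to hypoxia, had 1.57 and 1.63 in washout, 1.10 and 1.05 in Ro and 0.70 and 0.88 in control cultures. Adm lay near both thresholds, at 0.81 ± 0.09 after washout and 0.29 in Ro cultures. It was the only gene of 26 on the glycolysis and hypoxia list that rose, and 1 fell, with a median of -0.03. Olfml3, an olfactomedin-like secreted protein, had 0.21 and 0.09 in washout, -0.75 and -0.53 in Ro and -0.58 and -0.73 in control cultures, a difference of 0.81 ± 0.11.

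The amylases Amy1 and Amy2a5 were both members. Amy1 had 1.95 and 1.85 in washout, 0.88 and 0.87 in Ro and 0.98 and 0.79 in control cultures, and its second probe gave 1.05 against 1.02 ± 0.09 on the first. Amy2a5 had -3.53 and -3.34 in washout, -4.26 and -4.41 in Ro and -4.38 and -4.36 in control cultures, a difference of 0.94 ± 0.10. The 2 genes are near-identical copies, so that their probes may read each other's transcripts. Among proteins of cell contacts, Itgb4, the beta-4 integrin of hemidesmosomes, had 0.21 and 0.04 in washout, -0.89 and -0.67 in Ro and -0.79 and -0.86 in control cultures, and its 2 probes gave differences of 0.95 ± 0.11 and 0.95. Ocln, occludin of tight junctions, had -2.25 and -2.22 in washout, -3.45 and -3.33 in Ro and -3.14 and -3.32 in control cultures, a difference of 0.996 ± 0.10. Ugt2b5, a glucuronosyltransferase, was 1.48 ± 0.28 higher, with Ro arrays that differed by 0.73 from each other. Hipk4, a protein kinase, was 1.69 ± 0.18 higher on a dim probe, with -3.16 and -3.44 in washout, -4.88 and -5.06 in Ro and -5.20 and -4.77 in control cultures. Serpinb9, an inhibitor of granzyme B, had -2.04 and -2.12 in washout, -2.71 and -2.55 in Ro and -2.88 and -2.98 in control cultures. Of the 69 members fitted on their own probe, Serpinb9 was the 1 that passed between Ro and control. Its value was 0.30 (limma adjusted p = 0.0492), just inside the threshold of the rule. For Cdh20, Jak2 and Vat1l the fit used a brighter probe than the rule. Those probes also passed between Ro and control, at -0.60, -0.38 and -0.39. A second Serpinb9 probe gave 0.395 after washout, under the threshold, and -0.0009 in Ro cultures. Skor1, a corepressor, and Hsf5, a heat shock factor relative, were 0.98 ± 0.10 and 0.95 ± 0.13 higher. Vat1l was 0.89 higher on its own probe and 0.77 on a brighter second one. In Ro cultures that second probe was -0.39 relative to control, past the Ro threshold of the rule. Bclaf3 and Klhl25 were 1.17 and 0.83 higher, and their second probes gave 0.17 and 0.32. Srrm4, a splicing factor of neural microexons, was 0.99 higher with -0.88 and -0.84 in washout, -1.96 and -1.95 in Ro and -1.84 and -1.86 in control cultures. Its second probe had -1.62 and -1.67 in washout, -1.56 and -1.42 in Ro and -1.40 and -1.08 in control cultures, a difference of -0.40 in the other direction.

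The lower members included Mgp, with the widest difference, and 5 further genes of matrix proteins, grouped here after their values were seen. Of the 6 only Col1a1 is on the list of matrix genes. Mgp, matrix Gla protein, an inhibitor of calcification that binds BMPs, stood at -0.71 and -0.93 in washout, 0.84 and 0.91 in Ro and 0.69 and 1.10 in control cultures. Its difference was -1.71 ± 0.16, 3.28-fold lower in washout. Mfap4, a microfibril-associated glycoprotein, stood at -1.17 and -1.20 in washout, 0.07 and 0.00 in Ro and 0.01 and 0.01 in control cultures, with the Ro and control arrays within 0.07 of each other. Emilin2, an elastin-associated glycoprotein, had -2.34 and -2.45 in washout, -1.11 and -1.08 in Ro and -1.20 and -1.32 in control cultures. The differences were -1.20 ± 0.07 for Mfap4 and -1.14 ± 0.08 for Emilin2. Col1a1, the alpha-1 chain of type I collagen, stood at 1.78 and 2.09 in washout, 2.96 and 2.79 in Ro and 2.80 and 3.21 in control cultures, a difference of -1.07 ± 0.18. A second Col1a1 probe gave -1.03, and the first gave -1.08 without its 1 bright spot of 10. Pcolce2, which enhances the trimming of procollagen, had -1.003 and -0.82 in washout, -0.13 and -0.15 in Ro and -0.13 and 0.14 in control cultures, a difference of -0.91 ± 0.12. Col7a1, the collagen of anchoring fibrils, had 0.35 and 0.36 in washout, 1.06 and 0.78 in Ro and 1.06 and 1.37 in control cultures. It was -0.86 ± 0.15 after washout, from a spot inside the bright region, and its -0.30 in Ro cultures (unrounded -0.298) was the member value nearest the Ro threshold.

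Of 33 measured matrix genes 2 rose and 14 fell between washout and control, against 4.14% and 5.98% of all features (limma, adjusted p under 0.05), with a median of -0.49. Leaving out Col1a1, 2 rose and 13 fell of 32. Col3a1, fibrillar collagen III, fell by 1.46 ± 0.11 after washout and was -1.59 relative to control in Ro cultures. Fbn2, fibrillin 2, fell by 1.25 ± 0.14 and was 0.05 in Ro cultures, the pattern of the members. It was not a member because its probe was not well above background on all 6 arrays, with -4.86 and -5.24 in washout. Eln, elastin, fell by 0.77 ± 0.10 and was 0.68 above control in Ro cultures. Lama4 and Fbln1 were the 2 that rose, by 1.21 ± 0.07 and 0.89 ± 0.10, and in Ro cultures they were 3.95 and 2.74 above control.

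Among the lower members, 3 are markers of meningeal fibroblasts, cells that can come along when cortex is dissected: Col1a1, Aldh1a2 and Igf2. Aldh1a2, the enzyme that makes retinoic acid in the meninges, stood at -3.42 and -3.29 in washout, -1.65 and -1.84 in Ro and -2.02 and -1.73 in control cultures, a difference of -1.48 ± 0.13 or 2.79-fold lower. Igf2, insulin-like growth factor 2, stood at -2.24 and -2.38 in washout, -1.64 and -1.66 in Ro and -1.46 and -1.33 in control cultures, a difference of -0.91 ± 0.09. Of 13 measured meningeal fibroblast markers 1 rose and 10 fell between washout and control, against 4.14% and 5.98% of all features (limma, adjusted p under 0.05), with a median of -1.24. Leaving out the 3 members, which the rule chose for being lower, 1 rose and 7 fell of 10. Besides the 3 members, Postn, periostin, fell by 2.35 ± 0.10, Lum, lumican, by 1.53 ± 0.10, and Dcn, decorin, by 1.24 ± 0.12, while Ogn, osteoglycin, rose by 0.61 ± 0.10. The summed linear level of the 15 markers on the array, in units of the 75th percentile, was 37.1 to 38.0 in washout, 26.7 to 26.8 in Ro and 38.5 to 42.7 in control. In such a sum the brightest probe weighs most, here Ogn with 23.1 to 24.5 in washout, 6.43 to 7.28 in Ro and 15.0 to 16.2 in control. Without Ogn the sum was 13.5 to 14.0 in washout, 19.5 to 20.3 in Ro and 22.4 to 27.7 in control. That sum still holds the 3 members, which the rule chose for being lower after washout only. The rule thus had a part in the washout arrays being the lowest, and their rank is no independent evidence. Slc6a13 and Crabp2 of this list were not above background on any array. In Ro cultures 8 of the 13 fell, and Col1a1, Aldh1a2 and Igf2 were at -0.13, 0.13 and -0.25 relative to control. In such bulk samples fewer cells of a type and less RNA per cell cannot be told apart, and the part of meningeal cells in these differences was not tested. The microglia markers summed to 30.0 to 32.1 in washout, 26.6 to 31.8 in Ro and 29.7 to 30.5 in control. Per the growth protocol less than 1% stained for Iba1, a microglial protein. Of 9 measured retinoic acid genes, listed after the values were seen, 2 rose and 2 fell with a median of 0.23. Aldh1a3, a related enzyme, fell by 1.46 ± 0.21 and was -1.64 relative to control in Ro cultures, where Aldh1a2 was 0.13. Mdk, midkine, a heparin-binding growth factor that retinoic acid induces, had -1.48 and -1.57 in washout, -0.44 and -0.34 in Ro and -0.62 and -0.56 in control cultures. It was -0.94 on this probe and -0.60 on a brighter second one, which stayed under the threshold.

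Immune and cell death genes among the lower members were Ccl5, Ripk3 and Ltb4r1. Ccl5, the chemokine RANTES, had -0.28 and -0.50 in washout, 0.48 and 0.85 in Ro and 0.60 and 0.61 in control cultures, a difference of -0.997 ± 0.15. Of 14 inflammatory genes 1 rose (Lcn2) and 1 fell (Ccl5), with a median of 0.19. Ripk3, the kinase of necroptosis, had -3.23 and -2.68 in washout, -1.81 and -1.82 in Ro and -2.03 and -1.57 in control cultures, a difference of -1.15 ± 0.23 with washout arrays 0.55 apart. Ltb4r1, a leukotriene B4 receptor, was at -0.92 ± 0.13. Enzymes and mitochondrial genes included St14, the membrane protease matriptase, with -2.84 and -2.74 in washout, -1.32 and -1.25 in Ro and -1.37 and -1.28 in control cultures. Its difference was -1.47 ± 0.08, with little spread within any group. Cox7a1, a subunit of cytochrome c oxidase typical of muscle, had 2.29 and 2.15 in washout, 3.32 and 3.46 in Ro and 3.35 and 3.41 in control cultures, a difference of -1.16 ± 0.09. Ppargc1b, a coactivator of mitochondrial genes, was at -0.97 ± 0.13, and Pla1a, a phospholipase of phosphatidylserine, at -1.004 ± 0.14.

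Signalling genes lower after washout included Gnb4, a G protein beta subunit, with -3.74 and -3.80 in washout, -2.51 and -2.45 in Ro and -2.46 and -2.65 in control cultures. Its 2 probes gave differences of -1.22 ± 0.09 and -0.85. Rrad, a Ras-related GTPase that restrains calcium channels, had -2.53 and -2.44 in washout, -1.55 and -1.62 in Ro and -1.44 and -1.38 in control cultures, a difference of -1.08 ± 0.08. Itpka, a kinase of inositol trisphosphate, Rasip1, a Ras-interacting protein, and Ptpn4, a tyrosine phosphatase, lay between -0.97 and -0.81. Ptpn4 rested on control arrays that were 1.16 apart. Pmepa1, an inhibitor of TGF-beta signalling that TGF-beta induces, had -1.37 and -1.09 in washout, -0.13 and -0.19 in Ro and -0.48 and -0.34 in control cultures. Its second probe gave -0.80, beside -0.82 ± 0.12 on the first. Of 26 TGF-beta and BMP genes 4 rose and 5 fell, with a median of -0.12. Surface proteins formed a further group: Rtn4rl1, a relative of the Nogo receptor, had -2.54 and -2.55 in washout, -1.71 and -1.78 in Ro and -1.60 and -1.55 in control cultures. Lingo3, Cdh20 (a cadherin), Prnd (the prion relative doppel), Ptgfrn, Tmeff1, Tmem37 and Tmem144 lay between -0.96 and -0.83. Second probes gave -0.88 for Tmem144, -0.86 for Ptgfrn and -0.70 for Tmem37, but -0.10 for Tmeff1 and 0.04 for Cdh20, whose second probe was also -0.60 relative to control in Ro cultures. Other lower members were Cdc25c, the phosphatase that starts mitosis, Mdfi, an inhibitor of myogenic factors, Kdm7a, a histone demethylase, Fubp1, a regulator of Myc, Rhox5, a homeobox gene, and Ap1g2, an adaptor of vesicle coats, between -1.08 and -0.88. Further probes gave -0.19 and -0.13 for Kdm7a, -0.41 for Fubp1 and -0.87 for Mdfi. In Ro cultures those of Fubp1 and Mdfi were 0.32 and -0.45 relative to control, past the Ro threshold. Of 31 cell cycle genes 0 rose and 0 fell between washout and control (limma), and 1 was higher and 3 lower at an unadjusted p under 0.05. Cdc25c and Ap1g2 had control arrays 0.90 and 1.59 apart, and the Ro arrays of Mdfi were 1.53 apart.

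The 2 washout arrays did not agree equally for all members. They lay within 0.8 of each other for 69 members and further apart for 13, of which 12 were higher. In all 12 washout 1 was above washout 2. Zbtb14, a zinc-finger protein, had -0.59 and -3.37 in washout, -3.40 and -3.42 in Ro and -3.52 and -3.46 in control cultures. Washout 2 was thus only just above the highest of the other 4 arrays, and washout 1 alone carried the difference of 1.51. G2e3, a ubiquitin ligase, had 0.58 and -1.84 in washout, -2.22 and -2.37 in Ro and -2.24 and -2.35 in control cultures, from a spot that Feature Extraction marked as faulty on at least 1 array. The others were Klhl31, Faap24, Slc4a7, Lat2, Ramp3, Ncoa2, Jak2, Plcb1, Rnf170 and Sos1, with differences from 0.81 to 1.50. Jak2, the kinase that Socs3 inhibits, was 0.96 higher on the member probe with -3.23 and -4.58 in washout, -4.79 and -4.92 in Ro and -4.58 and -5.14 in control cultures. A brighter Jak2 probe had 1.50 and 1.58 in washout, 1.18 and 1.13 in Ro and 1.50 and 1.57 in control cultures, a difference of 0.00. Slc4a7, a sodium bicarbonate cotransporter, was 1.44 higher on the member probe. Its other 2 probes gave -0.21 and -0.14 after washout, and 1.04 and 0.999 in Ro cultures, where the member probe gave -0.02. The lower member with such a gap was Atp2b2, a calcium pump, with -4.59 and -3.21 in washout, -2.68 and -2.74 in Ro and -3.05 and -2.92 in control cultures. Over all probes well above background, washout 1 exceeded washout 2 by more than 0.8 for 0.986% and the reverse held for 0.977%. These shares were smaller in the other groups, at 0.35% and 0.256% for the Ro arrays and 0.243% and 0.691% for the control arrays.

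**Figure D3:**
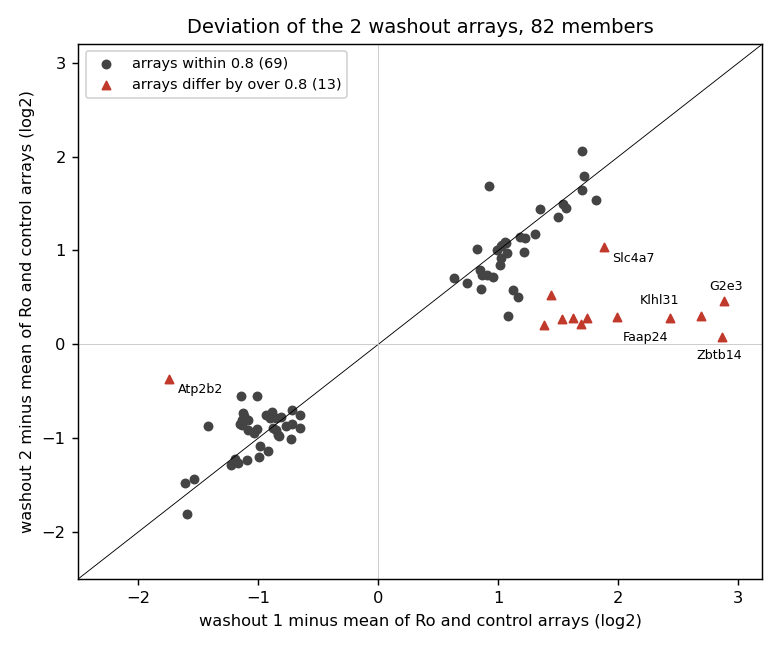
Level on washout 1 (horizontal) and washout 2 (vertical), each minus the mean of the 4 Ro and control arrays (log2), for the 82 members. The 69 members whose washout arrays lie within 0.8 of each other (circles) follow the diagonal, and 12 of the other 13 (triangles) lie far to the right with washout 2 between 0.08 and 1.03.

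A further 35 probes of 32 member genes were well above background on all 6 arrays. Of these, 26 had the direction of the member probe, 10 passed 0.8 in it, and 9, of 9 genes, met the whole rule themselves: those of Junb, Amy1, Itgb4, Sertad1, Pmepa1, Tmem144, Ptgfrn, Col1a1 and Gnb4. For the 12 higher members with washout 1 above washout 2, 4 of 11 other probes had the same direction, with a median of -0.08 and a highest value of 0.33. For the rest of the higher members 10 of 11 did, with a median of 0.73. For the lower members 12 of 13 did, with a median of -0.70. Between Ro and control, 9 of the 35 probes, of 8 genes, differed by 0.3 or more, so that these 8 genes met the Ro criterion on the member probe and not on all of their probes.

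**Figure D4:**
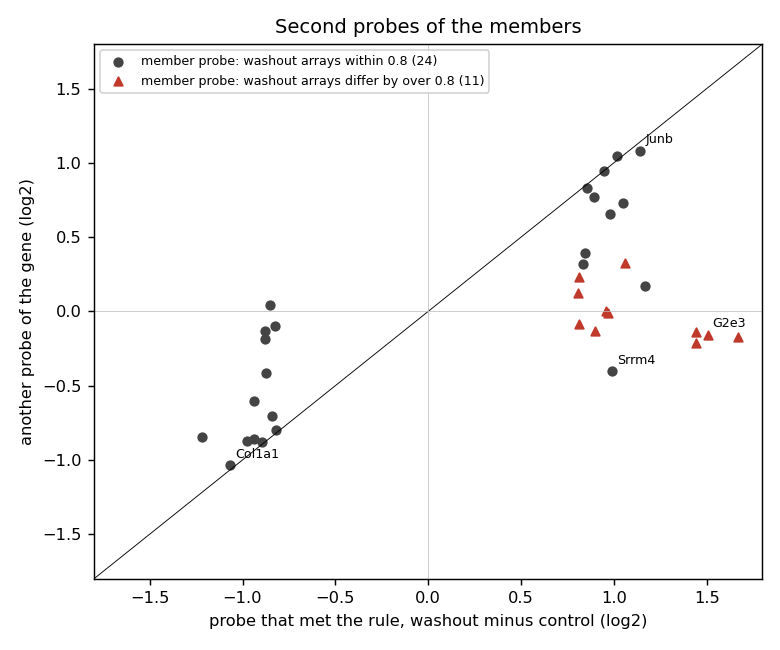
Washout minus control (log2) of 35 other probes (vertical) against that of the member probe of the same gene (horizontal), with the diagonal. Circles are probes of members whose washout arrays lay within 0.8 of each other, and triangles, near 0 on the vertical axis with a highest value of 0.33, are those of members whose washout arrays did not.

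Position on the slide also differed among the members. Dim spots, which carry little RNA signal, were raised in a streak across the washout slide, called the bright region here. It covered 4.62% of the spots on washout 1, 1.04% on washout 2 and at most 0.0115% on any other array. Of the probes well above background on all 6 arrays 5.31% had a spot in it. The same held for 9 members, 7 of them higher (Klhl31, Fos, Ramp3, Bhlhe40, Olfr812, Msantd2 and Rnf170) and 2 lower (Col7a1 and Col1a1). Olfr812, an olfactory receptor gene, had -1.70 and -2.36 in washout, -2.99 and -2.67 in Ro and -2.94 and -2.88 in control cultures, and Msantd2 was 0.82 higher with washout arrays 0.77 apart. Of the 12 members with washout 1 above washout 2, 3 lay in the bright region (Klhl31, Ramp3 and Rnf170) and 9 did not. Without probes in bright regions the rule gave 74 genes, 37 higher and 37 lower. Without probes whose washout arrays differed by over 0.8 it gave 69, 32 higher and 37 lower. Both of these settings were chosen after seeing the data.

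**Figure D5:**
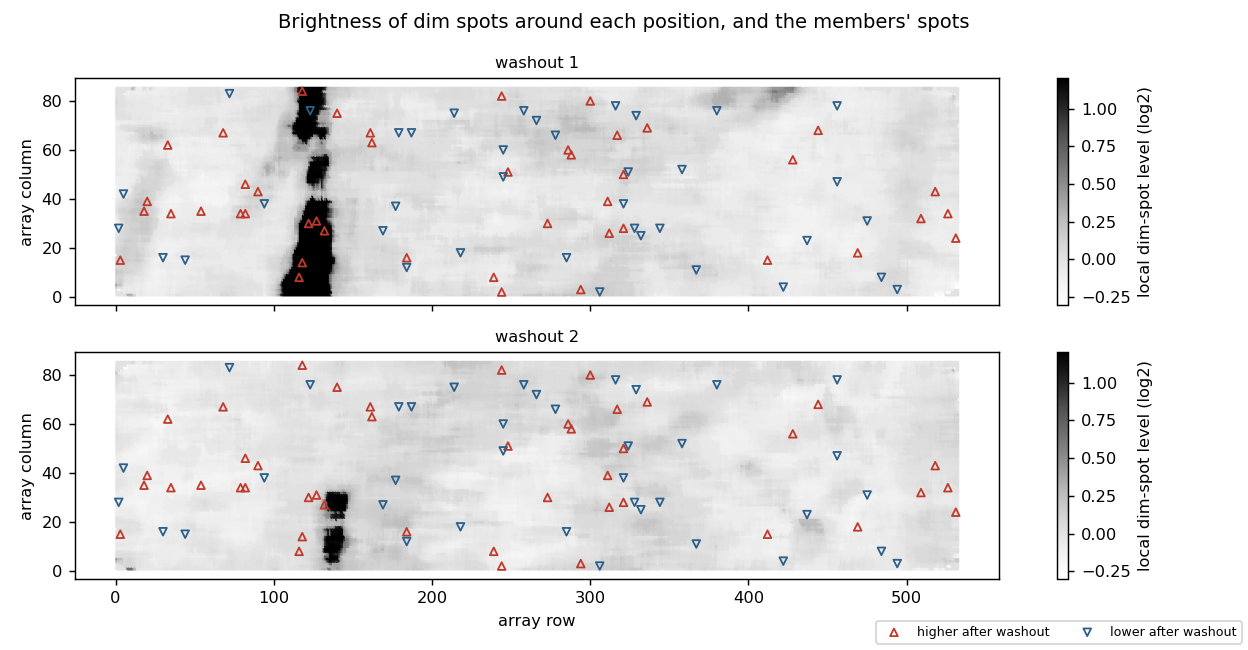
Local brightness of dim spots (grey, log2, median of dim spots around each position minus the array's median) by array row and column on both washout arrays, with 1 spot of each member drawn as a triangle pointing up (higher) or down (lower). The dark streak on washout 1 and the smaller one on washout 2 hold the single spots of 7 members, and Fos and Col1a1, with 10 spots each, have some of theirs there.

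The thresholds fell within a continuum. Just inside that of 0.8 lay Sos1 at 0.805, Olfml3 at 0.807 and Itpka at -0.810. Just outside it lay Hexim1 at 0.798, Dcbld2 at 0.793 and Unc5b at -0.788. Just inside the Ro threshold of 0.3 lay Col7a1 at -0.298, Serpinb9 at 0.298 and Hpx at 0.296. Just outside it lay Stab1 at 0.301, Otud7b at -0.303 and Mfhas1 at -0.311. No member changed direction with median scaling, quantile normalization, the authors' deposited table or normexp background correction. These settings reuse the arrays on which members were chosen for a difference of at least 0.8, so this is no independent evidence. The number of members did depend on the background correction: with normexp on the median spot signal and an offset of 50, 27 of the 82 stayed within both thresholds, against 71 with median scaling, 75 with quantile normalization and 71 in the authors' deposited table.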

How the data were processed

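Each array file deposited by the authors holds spot intensity on a linear scale. Per the labels' protocols, RNA with an integrity number of at least 6.5 was labelled with Cy3, and scans were extracted with Agilent Feature Extraction, version 10.1 per the submitters' processing notes and 10.5.1.1 per the file headers. The processed intensity is corrected for background within the array and not scaled between arrays. The authors' deposited table holds a linear ratio for each of 41240 probes. Its reference, centring and direction are not given in the sources used here. Its column medians were 0.87 and 0.94 in washout, 0.95 and 0.97 in Ro and 0.99 and 0.95 in control. Its probe-centred log2 values matched those of the processed intensity (r of 1.0 on each array). It was used in place of the intensities as an alternative.

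The log2 processed intensity of 41174 non-control probes, averaged over spots, was reduced by the array's 75th percentile. A gene symbol was found for 25097 probes (61.0%) through the accession and RefSeq, and 44 unnamed probes that met the rule are not described. Of the named members, 1 is counted and not reported individually here. Level differences of all features were fitted with limma 3.58.1 in R 4.3.3 (1 mean per group over 6 arrays, 3 residual and 2.07 prior degrees of freedom), with two-sided moderated tests and Benjamini-Hochberg adjustment over 20088 features. A feature was the brightest probe of a gene, unmarked by Feature Extraction and called well above background on the 2 arrays of 1 group or more. The script was tested on simulated data. An exact permutation test was not used, since 2 arrays against 2 cannot reach 0.05. Bright regions are positions where the median of dim spots (well above background on at most 2 arrays) within 10 rows and 3 columns exceeded the array's by over 0.3. Tables and figures were made in Python 3.11.15 with pandas 2.3.3 and matplotlib 3.10.9.

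The members and lists were chosen with earlier results of these data known, and the lists of STAT3 and acute-phase, Notch and retinoic acid genes after the values were seen. By rule the text names the 10 highest and 10 lowest members, list members, members sharing a symbol stem, those nearest the thresholds, and Axin2, Sp5, Egr1 and Gfap. Of the list genes that passed between washout and control, some are named, picked after their values were seen. All other names were chosen after their values were seen. The deviations of same-numbered arrays from their group means correlated weakly (r of 0.08 for washout and control, -0.12 for Ro and control and -0.11 for washout and Ro). With 2 arrays per group such values cannot exclude that the replicate numbers pair the samples, and the main fit used no block. Alternatives changed scaling, background correction, probe filter, probe choice, thresholds, variance model, block and arrays used.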

Additional observations from a re-analysis of the deposited data

How the results depend on the processing

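The number of members moved with the filters, the thresholds, the background correction and the arrays used. The set held 31 genes with normexp on the median signal (20 higher, 11 lower), 172 when a probe needed to be well above background in only 1 group (67 higher and the rest lower), and 32 at a washout threshold of 1 (20 higher, 12 lower). At a Ro threshold of 0.2, 29 were higher, and 61 and 64 were lower with median scaling and in the authors' deposited table. With quantile normalization 83 genes met the rule, 72 of them shared with the 82. Leaving out single arrays gave 77 to 199 members, 40 to 111 higher and 37 to 88 lower. The largest set, 199, came without washout replicate 2 and shared 75 genes, and without washout replicate 1 the rule gave 108, with 61 shared. Without control replicates 1 and 2, 60 and 55 were shared. Under the alternatives run for the named members none reversed, but the rule largely fixed this outcome. Leaving out 1 array could not reverse a member, since both washout arrays lay on one side of the other 4. Across all features, 832 rose and 1201 fell between washout and control. These became 62 and 75 with no filter on dim probes, 297 and 462 with the replicate block, 1304 higher with an intensity trend, and 83 to 590 higher and 117 to 737 lower without single arrays, lowest without control replicate 2. Without probes in bright regions, added after seeing the data, 721 rose and 1165 fell. Calls between Ro and control numbered 3906 higher and 4574 lower, 2496 higher with no filter on dim probes, and 1826 to 4107 higher and 2711 to 4707 lower without single arrays. Those between washout and Ro numbered 4301 higher and 4047 lower, 2684 lower with no filter on dim probes, and 2660 to 4077 higher and 2092 to 3755 lower without single arrays. The cause of these shifts was not tested. A replicate block with the Ro numbers exchanged, added after seeing the data, gave 729 higher and 928 lower between washout and control. The share of higher calls between washout and control was 40.9%, and 29.5% with median scaling and 29.1% in the authors' deposited table. Between washout and Ro it was 51.5%, and 39.4% and 38.9% with these 2, which shifted the median of all features to -0.12.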

Other observations

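Of the 16 pathway lists, 7 held no member: those of interferon response, Wnt and beta-catenin, SRF and YAP, unfolded protein response, cholesterol synthesis, TGF-beta and BMP, and cell cycle genes. Of 23 interferon response genes 0 rose and 10 fell between washout and control (limma, adjusted p under 0.05; 0 higher and 18 lower at an unadjusted p under 0.05), with a median of -0.69. Isg15, a ubiquitin-like antiviral protein, fell by 1.50 after washout and was -1.54 relative to control in Ro cultures. Oas1a, an antiviral synthetase, fell by 1.36 after washout and was -0.36 in Ro cultures. Of 15 Wnt and beta-catenin targets 6 rose and 2 fell, with a median of 0.44. Axin2, the feedback scaffold of the pathway, was 1.46 ± 0.13 above control after washout and 4.29 above it in Ro cultures. Of 16 SRF and YAP targets 2 rose and 2 fell, with a median of -0.20, of 16 unfolded protein response genes 1 rose and 1 fell, with a median of -0.19, and of 23 cholesterol synthesis genes 0 rose and 1 fell (2 higher and 4 lower at an unadjusted p under 0.05), with a median of -0.05.

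Cell type markers other than the meningeal ones held no member either. Of 20 astrocyte markers 1 rose and 2 fell, with a median of -0.01, and Gfap, the intermediate filament of astrocytes, differed by 0.06 between washout and control and by -0.98 between Ro and control. Of 14 microglia markers 0 rose and 0 fell (0 higher and 3 lower at an unadjusted p under 0.05), and the same held for 10 neuron markers (0 higher and 1 lower). Of 7 pericyte and smooth muscle markers 4 fell, and their summed level was 185 to 189 in washout, 82.6 to 83.2 in Ro and 255 to 283 in control, or 10.1 to 10.2 in washout, 6.62 to 6.78 in Ro and 11.5 to 11.6 in control without Acta2, the brightest. Of 5 endothelial markers 1 rose and 2 fell, of 6 oligodendrocyte precursor markers 1 rose and 3 fell, of 6 oligodendrocyte markers 2 rose, and of 9 ependymal markers 2 rose.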
